A study of Mus musculus with 4 samples.

Results

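The genes described here are 10 genes of the unfolded protein response in the endoplasmic reticulum (ER): the chaperones and folding enzymes Hspa5, Hsp90b1, Hyou1, Dnajb9, Sdf2l1, Creld2, Pdia4 and Pdia6, the degradation factor Herpud1, and Xbp1, the transcription factor of the response. They were picked by name, with earlier results of these data known. A probe was counted as theirs when its RefSeq accession maps to one of the 10 symbols. This gave 12 probes for 10 of the 21153 genes that have a symbol on the array, with Dnajb9 and Pdia6 measured by 2 probes each. All 12 probes were well above background on all 4 arrays, so no gene entered the test through 1 genotype alone. Gene expression was measured on 1-colour Agilent mouse arrays in whole liver from 2 wild type mice and from 2 mice in which the Cyp3a gene cluster is knocked out (Cyp3a-/-), with 1 array per liver and different animals throughout. The Cyp3a cluster encodes cytochrome P450 enzymes, which are membrane proteins of the ER, and the series sets out to find the effect of losing the cluster on liver transcripts. The sources used here name no treatment and give neither the strain nor the sex, age or feeding state of the mice.

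The ER folds the proteins that a cell secretes, and hepatocytes secrete most plasma proteins. When unfolded proteins accumulate, the sensor IRE1 (gene Ern1) removes a short intron from Xbp1 mRNA, which lets the message encode the active factor XBP1s. The sensor ATF6 is cut in the Golgi to release an active factor. The sensor PERK slows translation and favours the factor ATF4. XBP1s and ATF6 raise the transcription of chaperones, disulfide isomerases and degradation factors. The array values give the total level of a probe's transcript and do not tell spliced from unspliced Xbp1 mRNA.

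Promoters of ER chaperone genes are known for a shared control element, which is shown here because it relates the genes by sequence and not by measured values. The ER stress response element (ERSE) was searched as CCAAT and CCACG with 9 free bases between them, its variant ERSE-II as ATTGG and CCACG with 1 free base between them, and the XBP1-binding element UPRE as TGACGTGG, each on both strands, in RefSeq windows of 300 bases (GRCm38.p6, 250 bases before to 50 after a gene's start). The exact matches in the stretches below did not overlap each other. Of the 10 genes, 9 had a window, and Hyou1 had none. An exact ERSE stood in 4 of these 9 (Hspa5, Hsp90b1, Creld2 and Pdia6), beside 0.119% of all 32851 windows. An exact ERSE-II stood in 1 of 9, Herpud1, beside 0.0365% of all windows. UPRE stood in 0 of 9, beside 0.676%. With 1 mismatch allowed in the 10 fixed letters, 6 of 9 windows held an ERSE, Pdia4 and Herpud1 added, beside 1.5% of all windows. The stretches below run 5′ to 3′ on the gene's own strand, lie before the start site, and have the fixed letters of the motif in capitals. Hspa5 holds its ERSE from 65 to 47 bases before the start (chr2:34772005-34772063, plus strand):
Hspa5: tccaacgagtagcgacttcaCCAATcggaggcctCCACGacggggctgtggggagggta
Hsp90b1 holds 2 of them, the farther one in the forward and the nearer one in the reverse direction (chr10:86705513-86705676, minus strand):
Hsp90b1: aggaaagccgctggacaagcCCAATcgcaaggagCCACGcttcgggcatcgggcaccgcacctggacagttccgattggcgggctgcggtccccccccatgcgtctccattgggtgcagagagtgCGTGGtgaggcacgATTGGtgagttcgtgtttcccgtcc
Pdia6 holds 1 in the forward direction (chr12:17266471-17266529, plus strand):
Pdia6: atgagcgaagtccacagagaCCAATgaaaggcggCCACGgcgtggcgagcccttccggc
Creld2 holds 1 in the reverse direction (chr15:88819500-88819558, plus strand):
Creld2: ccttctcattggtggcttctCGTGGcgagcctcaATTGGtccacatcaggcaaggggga
Herpud1 holds the shorter ERSE-II, from 52 to 42 bases before its start (chr8:94386357-94386407, plus strand):
Herpud1: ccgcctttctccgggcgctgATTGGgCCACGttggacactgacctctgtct
A match is a run of letters and not a measured binding site.

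Between the genotypes, none of the 10 genes passed the threshold of an adjusted p of 0.05 (0 of 10, limma with Benjamini-Hochberg adjustment over all features, 17406 tested), where 0.276% of all features did. At an unadjusted p under 0.05, 1 of the 10 differed, Xbp1, lower in Cyp3a-/- liver, beside 10% of all features in either direction, 5.42% lower and 4.6% higher. The other 9 genes all had a log2 fold change (Cyp3a-/- minus wild type) above 0, from 0.03 to 0.49, where 51.4% of all features did, although Pdia4 was below 0 with normexp background correction or quantile normalization. With wild type 1 left out, 5 of the 10 were above 0 and the median over the 10 was 0.02. With all 4 livers the median over the 10 genes was 0.24, beside 0.01 over all features. By the exact permutation test of the 4 labels, 2-sided, this median had p = 0.333, the smallest value that 2 livers against 2 can give. Livers of the genotypes did not overlap for 4 of the 10 genes, Hsp90b1, Herpud1 and Pdia6 in the higher direction and Xbp1 in the lower, beside 42.8% of all features, 22.5% in the higher and 20.2% in the lower direction. The members' share is near that background. In whole liver, fewer cells of a type and less RNA per cell cannot be told apart.

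**Figure D1:**
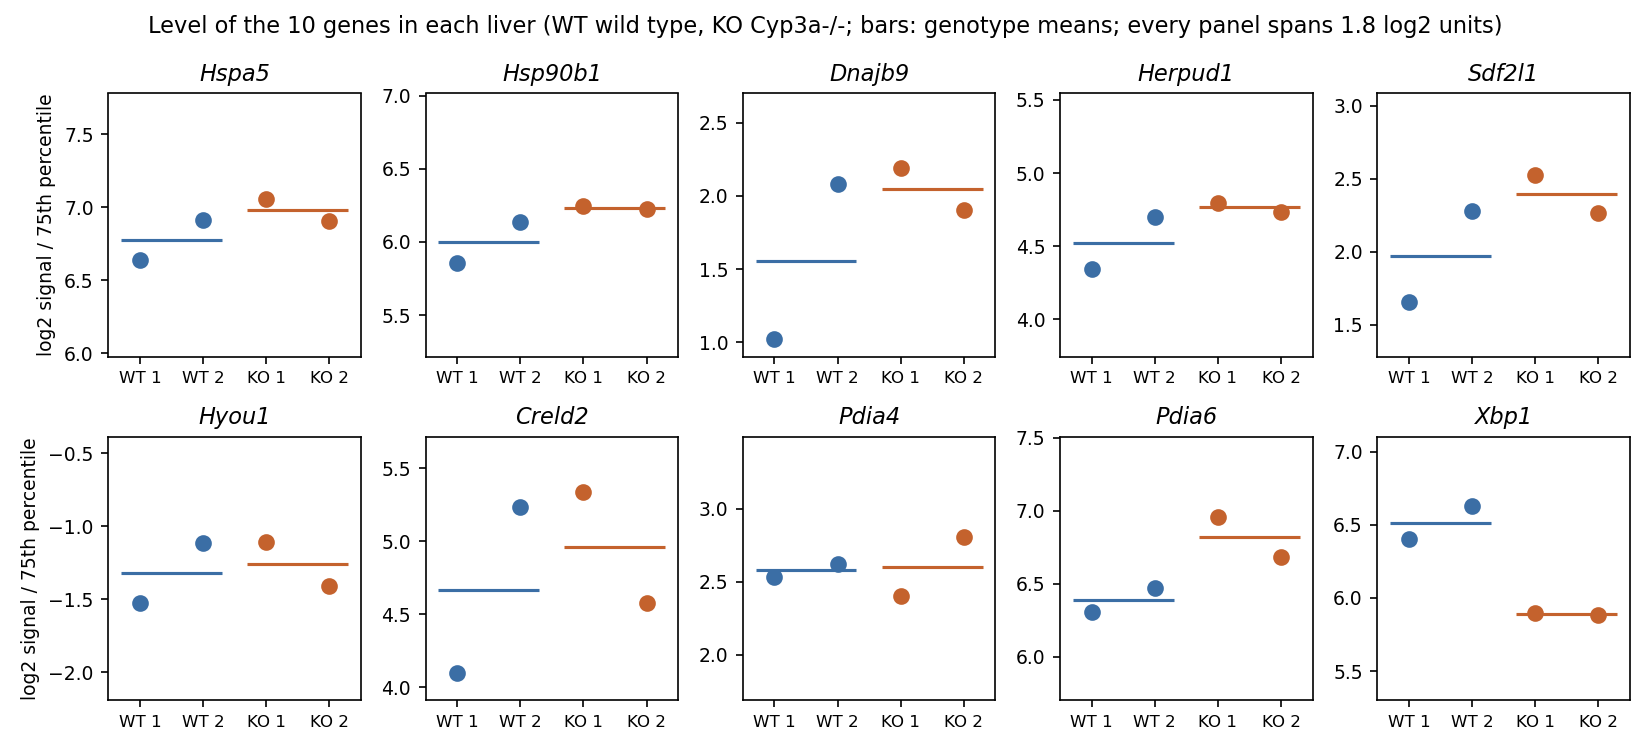
Level of each of the 10 genes in the 4 livers, as log2 of the signal over the 75th percentile of its array, with wild type (WT) in blue, Cyp3a-/- (KO) in orange and bars at the genotype means. Xbp1 lies at 6.40 and 6.63 in wild type and at 5.89 and 5.88 in Cyp3a-/- liver, while most chaperones have wild type 1 as their lowest point.

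Xbp1 was the member with the largest difference between genotypes. Its level (log2 of the processed signal over the 75th percentile of the same array, the scale of all levels here) was 6.40 in wild type 1, 6.63 in wild type 2, 5.89 in Cyp3a-/- 1 and 5.88 in Cyp3a-/- 2. Both Cyp3a-/- livers lay below both wild type livers and close to each other. The means were 6.51 ± 0.16 and 5.89 ± 0.0076 (SD, n = 2 per genotype), a log2 fold change of -0.62 ± 0.18 (SE; 95% interval -1.08 to -0.17), or a 1.54-fold lower level. The unadjusted p was 0.016 and the limma adjusted p was 0.368, so the difference failed the correction over all features. In size it exceeded the differences of 89.5% of all features. Its processed signal was 26344 and 34783 units in wild type and 18661 and 18177 units in Cyp3a-/- liver, with no saturated spot. Under the 14 alternative settings tried, the log2 fold change of Xbp1 lay between -0.77 and -0.51 and the adjusted p between 0.229 and 0.953.

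Xbp1 is also abundant in plasma cells, so markers of B and plasma cells are given beside it. Of 10 listed markers, 8 had a named probe and 7 were tested, of which 3 were lower and 1 was higher at an unadjusted p under 0.05, and 0 passed after adjustment (limma). The plasma cell gene Jchain, named after its values were seen, stood at -2.94, -3.73, -3.71 and -3.07 in wild type 1, wild type 2, Cyp3a-/- 1 and Cyp3a-/- 2. The summed level of the 8 markers, in units of the array's 75th percentile, was 8.67 and 8.97 in wild type and 10.4 and 14.3 in Cyp3a-/- liver, most of it from Sdc1, which hepatocytes express too. Without Sdc1 the sum of the other 7 was 1.15 and 0.839 in wild type and 0.536 and 0.760 in Cyp3a-/- liver. Each of the 8 was well above background on at least 1 array, and their part in the Xbp1 difference was not tested.

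Hspa5 and Hsp90b1 encode the most abundant chaperones of the ER, BiP of the Hsp70 family and GRP94 of the Hsp90 family. The level of Hspa5 was 6.64 in wild type 1, 6.91 in wild type 2, 7.05 in Cyp3a-/- 1 and 6.91 in Cyp3a-/- 2. Only wild type 1 stood apart, and wild type 2 was level with Cyp3a-/- 2, so the genotypes overlapped. The log2 fold change was 0.21 ± 0.19 (SE; 95% interval -0.28 to 0.69), which leaves room for a level between 0.82 and 1.61 times that of wild type (limma adjusted p = 0.75). It was 0.024 with quantile normalization and 0.068 with wild type 1 left out. The level of Hsp90b1 was 5.86 and 6.14 in wild type and 6.25 and 6.22 in Cyp3a-/- liver. The Cyp3a-/- livers were both above the wild type livers, yet wild type 2 was nearer to them than to wild type 1. Its log2 fold change was 0.24 ± 0.19 (SE; 95% interval -0.24 to 0.71; limma adjusted p = 0.708), and 0.060 and 0.096 under those same settings.

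The partners of BiP also had their lowest level in wild type 1. Dnajb9, also called ERdj4, is a J protein that helps BiP and holds IRE1 in check. Its level was 1.02 in wild type 1, 2.08 in wild type 2, 2.19 in Cyp3a-/- 1 and 1.90 in Cyp3a-/- 2. Wild type 1 was low by 1.06 against wild type 2, a 2.09-fold gap within a genotype, and the other livers overlapped. The log2 fold change of 0.49 ± 0.37 (SE; limma adjusted p = 0.690) rested on that liver, since it was -0.04 when wild type 1 was left out. The second Dnajb9 probe, read at -1.54, -0.68, -1.16 and -0.95 in the same order of livers, also had its lowest value in wild type 1 but its highest in wild type 2, and its difference between genotypes was 0.06. Sdf2l1, a component of BiP complexes, stood at 1.66 in wild type 1, 2.28 in wild type 2, 2.53 in Cyp3a-/- 1 and 2.26 in Cyp3a-/- 2. Wild type 1 was again the low liver, and the log2 fold change was 0.42 ± 0.27 (SE; 95% interval -0.24 to 1.09; limma adjusted p = 0.637). Hyou1, or GRP170, which exchanges the nucleotide of BiP, was the dimmest member, at -1.53 and -1.12 in wild type and -1.11 and -1.41 in Cyp3a-/- liver. Its genotypes overlapped, at a log2 fold change of 0.06 ± 0.23 (SE; limma adjusted p = 0.943).

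Creld2, an ER protein induced by the unfolded protein response, varied most among livers. Its probe is printed repeatedly on the array, which shows the scatter of spots within an array. With 1 array per liver, error between arrays and the difference between livers cannot be told apart. With 9 or 10 usable spots per array, the spots ran from 3.99 to 4.21 in wild type 1, from 5.10 to 5.31 in wild type 2, from 5.23 to 5.42 in Cyp3a-/- 1 and from 4.47 to 4.67 in Cyp3a-/- 2. The SD between spots of an array was 0.051 to 0.065, while the livers spanned 1.24. The gap between the wild type livers was 2.20-fold, and the Cyp3a-/- livers differed by 0.76 in log2. The spots of an array share 1 RNA, labelling and hybridization and are not replicates of a genotype. The log2 fold change was 0.29 ± 0.45 (SE; 95% interval -0.82 to 1.40; limma adjusted p = 0.853), and leaving out wild type 1 gave -0.28. For the other members the scanner software assigned each spot an error of 10% to 10.6% of its signal.

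**Figure D2:**
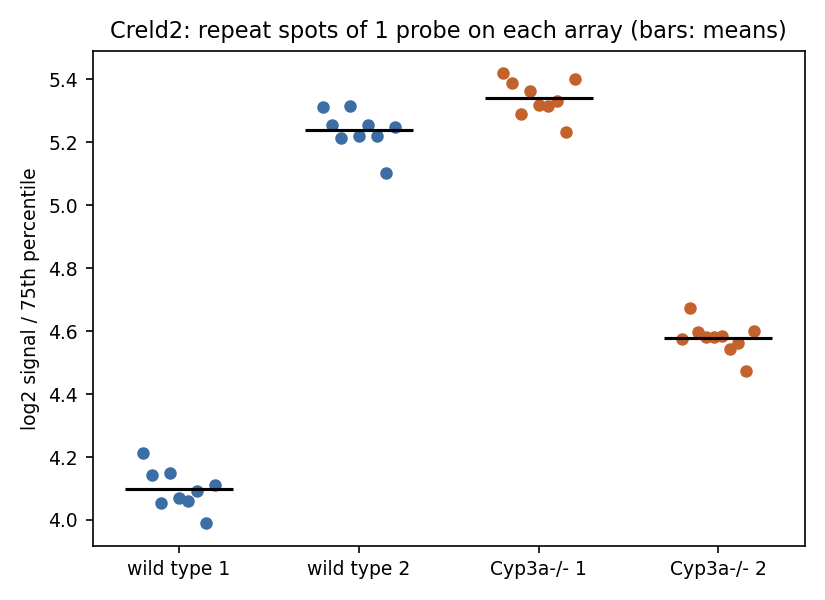
Repeat spots of the Creld2 probe on each array, as log2 of the signal over the 75th percentile of its array, with wild type in blue, Cyp3a-/- in orange and bars at the means. Spots of an array scatter with an SD of 0.051 to 0.065, while wild type 1 centres on 4.10, wild type 2 on 5.24, Cyp3a-/- 1 on 5.34 and Cyp3a-/- 2 on 4.58.

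The protein disulfide isomerases, which form and reshuffle disulfide bonds, did not give one picture. Pdia6 stood at 6.31 and 6.47 in wild type and at 6.95 and 6.68 in Cyp3a-/- liver. The genotypes did not overlap. The log2 fold change of Pdia6 was 0.43 ± 0.20 (SE; 95% interval -0.06 to 0.91), with an unadjusted p of 0.076 and a limma adjusted p of 0.557. It lay between 0.27 and 0.61 under the 14 alternative settings tried. The 443 features within 0.5 log2 units of the level of Pdia6 had a median log2 fold change of 0.16. The second Pdia6 probe read 1.66 and 1.83 in wild type and 2.65 and 2.45 in Cyp3a-/- liver, again without overlap, a difference of 0.80. Pdia4, or ERp72, had no such order: 2.53 and 2.62 in wild type and 2.40 and 2.81 in Cyp3a-/- liver. Both wild type livers lay between the Cyp3a-/- livers, and the log2 fold change was 0.03 ± 0.21 (SE; 95% interval -0.50 to 0.55; limma adjusted p = 0.977).

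Herpud1 encodes a membrane protein that helps assemble the complex for degradation of misfolded ER proteins. Its level was 4.35 in wild type 1, 4.70 in wild type 2, 4.80 in Cyp3a-/- 1 and 4.74 in Cyp3a-/- 2. The Cyp3a-/- livers were both higher, by little over wild type 2. The log2 fold change was 0.24 ± 0.20 (SE; 95% interval -0.26 to 0.75; limma adjusted p = 0.714), or 0.07 with wild type 1 left out.

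**Figure D3:**
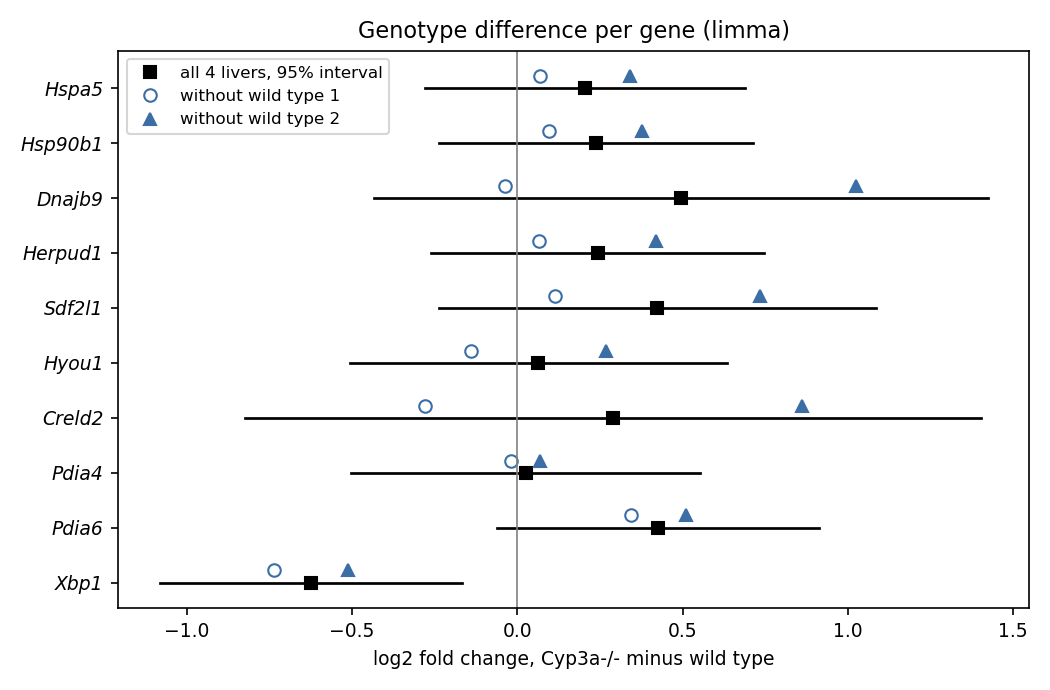
Log2 fold change of each gene, Cyp3a-/- minus wild type, with its 95% interval from all 4 livers (squares and bars) and the value when wild type 1 (open circles) or wild type 2 (triangles) is left out. Of the 10 intervals, only that of Xbp1 leaves out 0, and leaving out wild type 1 moves every gene but Xbp1 toward or past 0.

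Most of the 10 genes shared their lowest and highest liver. Wild type 1 was the lowest liver for 8 of the 10 genes, all but Pdia4 and Xbp1, where 22.6% of all features had their lowest value there. Cyp3a-/- 1 was the highest for the same 8 genes, where 27.6% of all features had their highest value there. Both together held for 9.59% of all features. These shares are not matched for level, and the highest liver was often a close call. Hyou1 read -1.11 in Cyp3a-/- 1 and -1.12 in wild type 2. Before scaling, the processed signal of Hspa5, Hsp90b1, Herpud1, Dnajb9, Hyou1 and Creld2 was highest in wild type 2. That of Sdf2l1 and Pdia6 was highest in Cyp3a-/- 1. Measured from each gene's own mean over the 4 livers, the 9 genes other than Xbp1 had a median of -0.30 in wild type 1, 0.06 in wild type 2, 0.18 in Cyp3a-/- 1 and 0.08 in Cyp3a-/- 2. Xbp1 mRNA itself ran differently, at 0.20 and 0.42 in wild type and -0.31 and -0.32 in Cyp3a-/- liver. Wild type 2, the liver with the highest Xbp1 value, had Hspa5, Hsp90b1, Herpud1 and Sdf2l1 values close to those of the Cyp3a-/- livers. Its Pdia6 value of 6.47 was nearer to wild type 1 (6.31) than to the Cyp3a-/- livers (6.95 and 6.68). Its Creld2 value of 5.24 was close to Cyp3a-/- 1 (5.34) but not to Cyp3a-/- 2 (4.58). With wild type 2 left out in place of wild type 1, the median log2 fold change of the 10 genes was 0.40 and 9 of 10 were above 0. Both wild type arrays lay on the same slide, while the Cyp3a-/- arrays lay on 2 other slides.

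**Figure D4:**
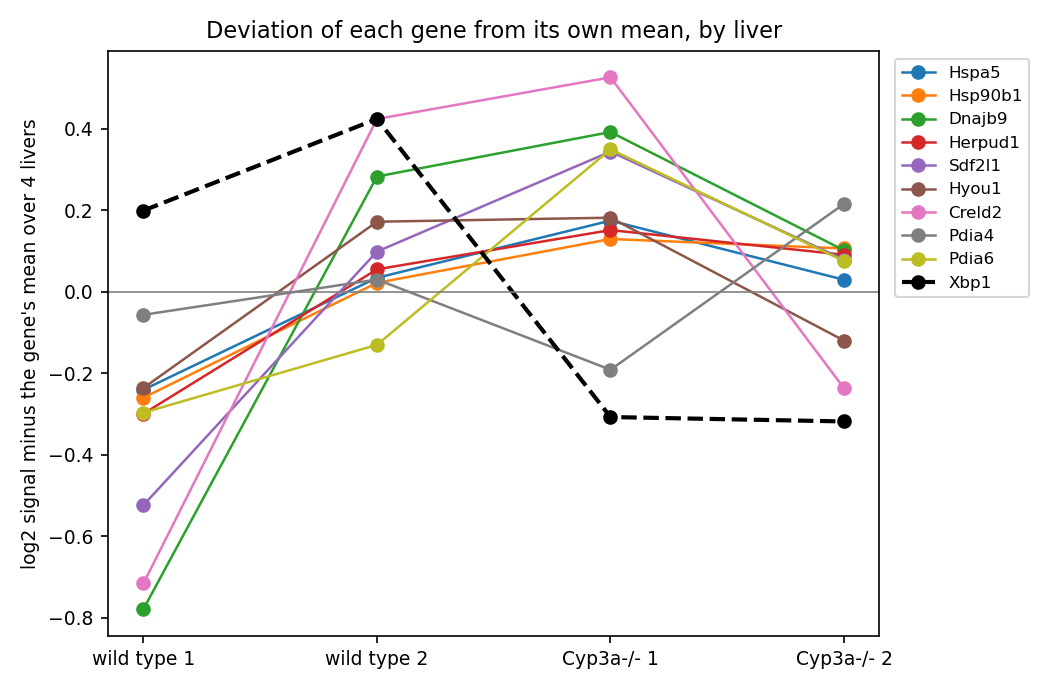
Log2 signal of each gene minus its own mean, for the 4 livers, where lines only link the points of 1 gene. Dnajb9 at -0.78 and Creld2 at -0.72 lie farthest down in wild type 1, and Xbp1 (dashed black) is below its mean in both Cyp3a-/- livers and above it in both wild type livers.

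Bright probes as a whole shifted a little between the arrays, which bears on the size of these values. The 357 features within 0.5 log2 units of the level of Hspa5 had median deviations of -0.06, -0.12, 0.02 and 0.16 in wild type 1, wild type 2, Cyp3a-/- 1 and Cyp3a-/- 2, while Hspa5 itself had -0.24, 0.03, 0.18 and 0.03. For the 1755 features near Dnajb9 the medians were -0.03, 0.02, -0.05 and 0.04, beside -0.78, 0.28, 0.39 and 0.10 for Dnajb9. The median log2 fold change was 0.17 over the features near Hspa5, beside 0.21 for Hspa5 itself, and 0.01 over those near Dnajb9, beside 0.49 for Dnajb9. In Cyp3a-/- 2 the features near Hspa5 stood higher against their own means than Hspa5 did. The part of this shift in the members' values was not tested. Quantile normalization, which removes such shifts, lowered the median log2 fold change of the 10 genes from 0.24 to 0.11, with 8 of 10 above 0 and 0 of 10 past the threshold.

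The 6 other lists of ER genes held 98 genes, of which 96 were tested, and 0 passed the threshold (limma), with 5 higher and 0 lower at an unadjusted p under 0.05, where 4.6% of all features were higher and 5.42% lower. The 5 include Fkbp11, which was not well above background in wild type. Their median log2 fold change was 0.09, with 63 of 96 above 0 (65.6%, beside 51.4% of all features). Wild type 1 was the lowest liver for 52 of the 96 (54.2%, beside 22.6%), and Cyp3a-/- 2 was the highest for 45 (46.9%, beside 26.5%). These shares of all features are not matched for level. Features near the level of Herpud1 had a median log2 fold change of 0.11 and those near Hspa5 of 0.17, the latter with a median deviation of 0.16 in Cyp3a-/- 2. The part of this shift in the values of the 96 genes was not tested. The lists, like the members, were chosen with earlier results of these data known.

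Among the sensors of the response and their close kin, 0 of 9 differed at an unadjusted p under 0.05 (median -0.04). Ern1, which encodes the enzyme that splices Xbp1 mRNA, stood at 1.17 and 0.97 in wild type and at 0.69 and 0.58 in Cyp3a-/- liver, a log2 fold change of -0.44 ± 0.18 (SE; limma adjusted p = 0.525). The genotypes did not overlap for Ern1, as for Xbp1 and for 42.8% of all features, 20.2% in the lower direction. Mbtps2, the protease that releases ATF6, stood at -0.28 ± 0.22 (log2 fold change, SE; limma adjusted p = 0.709). Eif2ak3, which encodes PERK and is named after its values were seen, had a log2 fold change of 0.21 ± 0.18 (SE; limma adjusted p = 0.716).

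Of 19 other chaperones and cochaperones, 1 was higher at an unadjusted p under 0.05 (median log2 fold change 0.12, 14 above 0). This was Fkbp11, a prolyl isomerase of secretory cells, which entered the test only through the Cyp3a-/- livers, so its count is no support for a direction. It read -4.44 and -5.01 in wild type, not well above background, -1.59 in Cyp3a-/- 1 and -3.81 in Cyp3a-/- 2, the last nearer to wild type than to Cyp3a-/- 1 (limma adjusted p = 0.452). The lectin chaperone calnexin (Canx) stood at 4.03 and 4.05 in wild type and 4.32 and 4.56 in Cyp3a-/- liver (log2 fold change 0.40 ± 0.19, SE; limma adjusted p = 0.559). Of 14 other isomerases and oxidases, 0 differed at an unadjusted p under 0.05 (median -0.04), with P4hb, the founding disulfide isomerase, at 0.30 ± 0.17 and Erp44 at 0.29 ± 0.17 (log2 fold change, SE).

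Of 17 tested genes of ER-associated degradation, 0 differed at an unadjusted p under 0.05 (median log2 fold change 0.07). Derl3, a channel component whose promoter holds an ERSE, read -0.14 and 1.03 in wild type and 0.02 and -1.02 in Cyp3a-/- liver, so its livers overlapped, and Derl1 had a log2 fold change of 0.24 ± 0.19 (SE; limma adjusted p = 0.702). Of 20 genes of the translocon and of signal peptide processing, 1 was higher at an unadjusted p under 0.05 (median 0.14), the signal peptidase subunit Sec11c at 0.53 ± 0.21, while the translocon-associated Ssr3 stood at 0.33 ± 0.18 (log2 fold change, SE; limma adjusted p = 0.493 and 0.606).

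Of 17 tested genes of transport from the ER to the Golgi, 3 were higher and 0 lower at an unadjusted p under 0.05 (17.6%, beside 10% of all features; median log2 fold change 0.11). Sar1b, the GTPase that starts the COPII coat, read 3.29 and 3.75 in wild type and 4.30 and 4.09 in Cyp3a-/- liver, and the cargo receptor Lman1 read 5.12 and 5.20 against 5.65 and 5.69. Neither pair of genotypes overlapped. Their log2 fold changes were 0.67 ± 0.23 and 0.51 ± 0.17 (SE; limma adjusted p = 0.435 and 0.437).

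In the PERK and ATF4 arm, which shares no gene with the 10, 1 of 9 was higher and 0 lower at an unadjusted p under 0.05. Of all features, 4.6% were higher and 5.42% lower. The median log2 fold change of the arm was 0.19, with 5 of 9 above 0. Asparagine synthetase (Asns), an ATF4 target, read -0.74 and -1.63 in wild type and 0.79 and 1.12 in Cyp3a-/- liver, a log2 fold change of 2.14 ± 0.33 (SE; limma adjusted p = 0.144). Chac1, another target of this arm, lay on the other side, at -0.73 ± 0.32 (log2 fold change, SE; limma adjusted p = 0.537). Trib3, named after its values were seen, lay on the side of Asns at 0.79 ± 0.34 (log2 fold change, SE). Its unadjusted limma p of 0.065 was nearly that of Chac1. The arm thus had members on both sides of 0.

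**Figure D5:**
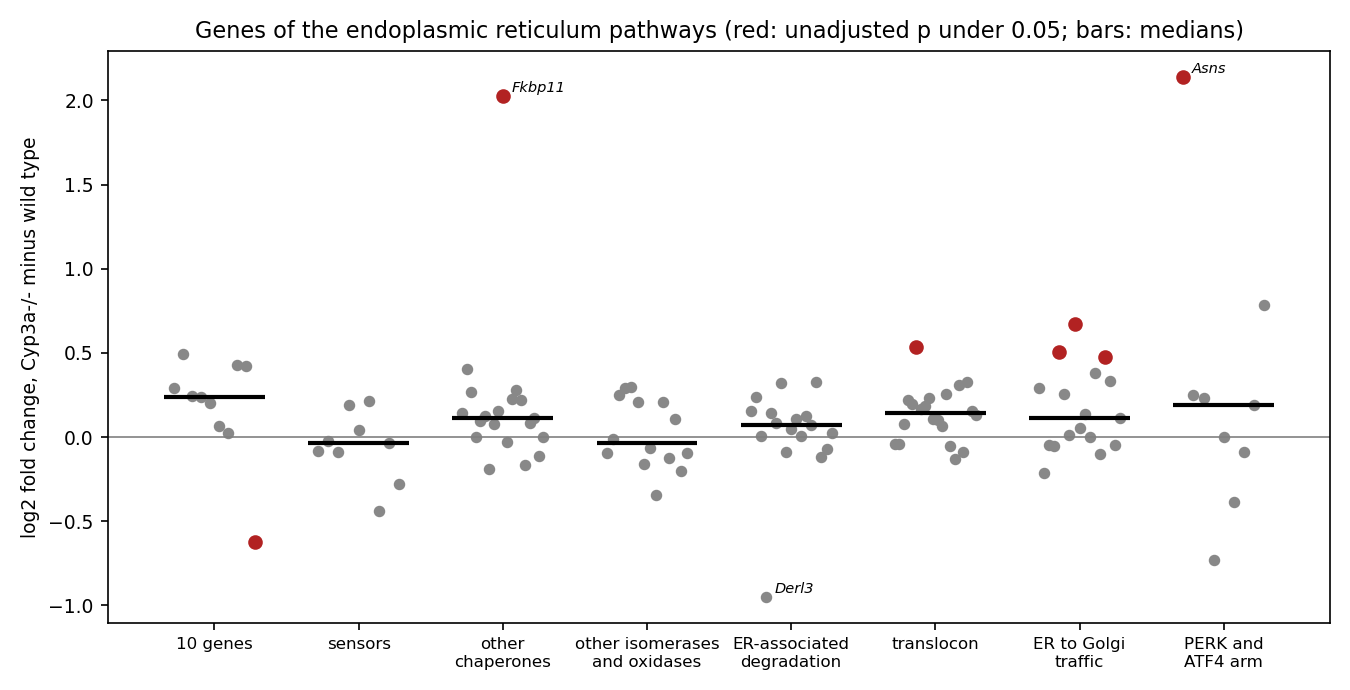
Log2 fold change, Cyp3a-/- minus wild type, of every tested gene of the 10 and of 7 further lists, with bars at the list medians and red points at an unadjusted p under 0.05. Medians lie between -0.04 and 0.24, and no point passed the adjusted threshold.

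Genes that share the ERSE were also read as a group set by sequence alone. An exact ERSE stood in the windows of 37 genes, of which 19 were tested, the 4 members among them. Of these 19, 0 passed the threshold, beside 0.276% of all features, and 2 had an unadjusted p under 0.05, beside 10% of all features. The 2 were Xlr3a and Xlr3b, X-linked genes with near-identical copies, named after their values were seen. The median log2 fold change of the 19 was 0.20, and wild type 1 was the lowest liver for 10 of them, where 22.6% of all features had their lowest value there. Among the 15 that are no member, it was the lowest for 6, with a median deviation of -0.21 there. Among the 9 that are neither a member nor on an ER list, wild type 1 and wild type 2 were the lowest for 3 each, with a median deviation of -0.13 in wild type 1. Syvn1, the ubiquitin ligase of ER-associated degradation, also named after its values were seen, had the same lowest and highest liver at 4.74 and 5.39 in wild type and 5.48 and 5.30 in Cyp3a-/- liver, while Ero1b, an oxidase, did not, at 2.23, 2.90, 2.90 and 2.21.

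The genes whose centred values over the 4 livers lay nearest to those of Hspa5 were Uba3, Drap1, Slc30a9, Nol9, Sec11a and Rap2a, with root mean square distances of 0.0056 to 0.017 log2 units. Among the members, Herpud1 lay at 0.045 and Hsp90b1 at 0.046, with 108 and 111 named genes nearer to Hspa5. The others lay farther, from Hyou1 with 982 named genes nearer, over Pdia6 (1659), Sdf2l1 (3310), Pdia4 (5728), Dnajb9 (9202) and Creld2 (10701), to Xbp1 (11355). With 4 livers, many genes share such a profile.

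The labels and the tissue were checked on arrays whose 75th percentile of signal was 308 to 352 units. Cyp3a11 read 7.94 and 8.09 in wild type and lay near background in both Cyp3a-/- livers (0 of 2 arrays well above it), at least 7204-fold lower. All 8 hepatocyte markers were well above background on every array, with a summed level of 2064 to 2365 times the 75th percentile in wild type and of 2306 to 2418 times in Cyp3a-/- liver. Other lists with a secretory or stromal source gave summed levels of 57.4 and 59.1 in wild type against 46.7 and 51.5 in Cyp3a-/- liver for macrophages, 43.1 and 39.1 against 36.0 and 38.9 for stellate cells, 41.7 and 31.6 against 37.4 and 34.3 for sinusoidal endothelium and 3.51 and 4.17 against 3.94 and 3.67 for cholangiocytes. Pancreatic acinar cells are rich in ER chaperones, and 5 of 9 of their markers, Cela3b, Cpa1, Cpb1, Pnlip and Prss2, were not well above background on any array. Ctrb1, Cel and Amy2a5 were well above it in both genotypes, and the summed level of the list was 3.87 and 4.13 in wild type and 3.46 and 1.38 in Cyp3a-/- liver. Amylase (Amy2a5) alone read 1.56 and 1.71 in wild type and 1.13 and -1.15 in Cyp3a-/- liver (limma adjusted p = 0.531), low in Cyp3a-/- 2, and its part in the members' values was not tested. None of these lists had a gene past the threshold (limma), and 1 gene, the macrophage receptor Marco, differed at an unadjusted p under 0.05. Of the circadian clock genes, 10 of 14 were tested, and wild type 1 was the lowest liver for 3 of them, where 22.6% of all features did so. Their median deviation was -0.08, -0.18, -0.08 and 0.45 in wild type 1, wild type 2, Cyp3a-/- 1 and Cyp3a-/- 2. This median pools genes that ran differently, so it cannot show whether the livers differed in clock time. Arntl read 0.38, 0.74, 0.94 and 0.41 in that order of livers, and Dbp 1.72, 0.70, -0.10 and 2.50. Both are named after their values were seen, and the part of the clock in the members' values was not tested. Nr1d1 had a log2 fold change of -0.84 ± 0.30 and Per1 of 0.70 ± 0.35 (SE; limma adjusted p = 0.453 and 0.584).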

How the data were processed

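Total RNA of 4 livers was labelled with Cy3 and read on 1 array each. The authors deposited scanner output whose intensity values were made with Agilent Feature Extraction 11.5.1.1 (background-subtracted and detrended, with no scaling across arrays), per the file headers. Flags and spot errors were used as deposited. The authors' deposited table of log2 values matched the scanner values after centring each probe on its median (correlation 1.00 per array), which is inferred from the values. It has column medians of 0.06, -0.07, -0.02 and 0.02. No per-sample column was left unused (0).

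Control spots and 113 to 148 outlier spots per array were left out. Levels were log2 of the processed signal over the 75th percentile of the same array, and 54.4% to 56.4% of probes were well above background. Probes were named by RefSeq accession through GRCm38.p6. Probes well above background on both arrays of a genotype were kept, with the brightest per gene, giving 17406 features. Vimp, Ero1l and Ero1lb were matched through older symbols. Limma 3.58.1 (lmFit, eBayes, 2-sided) compared genotypes at an adjusted p of 0.05. On simulated data for this comparison with 17406 features, 10% of changes of 1 log2 unit and 76% of changes of 2 were called. The array number limits the precision.

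Named were all 10 genes, the 2 smallest p-values of each pathway list, the brightest Cyp3a gene and the 6 nearest to Hspa5; exceptions are marked. The members and lists were chosen with earlier results of these data known. Both wild type arrays lay on 1 slide and the Cyp3a-/- arrays on 2 others, so slide and genotype cannot be told apart. Limma p-values rest on the spread between these livers, array error included. Limma pulled this spread toward that of all features, with 3.54 prior against 2 residual degrees of freedom.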

Additional observations from a re-analysis of the deposited data

How the results depend on the processing

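Of the 10 genes, 0 passed the adjusted threshold under each of the 14 alternatives, and 0 of the other ER genes did, except Fkbp11 with median scaling (1 gene) and without Cyp3a-/- 2; leaving out each liver in turn gave 0 to 1. Over all features 48 were called. Median scaling gave 659, where limma pooled the spread of all features into 1 value, no filter on dim probes gave 13 and a filter on all 4 arrays gave 9. Leaving out each liver gave 7 to 506. The median log2 fold change of the 10 genes ran from 0.024 (without wild type 1) to 0.40 (without wild type 2) when a liver was left out. Xbp1, Pdia6, Hspa5, Hsp90b1, Herpud1 and Sdf2l1 kept their direction in all 14 alternatives. Hspa5 (0.024), Hsp90b1 (0.060) and Herpud1 (0.13) were smaller with quantile normalization. The sign turned for Pdia4 with normexp (-0.019) and quantile normalization (-0.026), for Pdia4 without single livers (-0.18 to 0.23), for Hyou1 (-0.14 to 0.27), Creld2 (-0.28 to 0.86) and Dnajb9 (-0.036 to 1.03) likewise; the cause was not tested. The replicate block gave 58 calls over all features and 0 of the 10. The labels do not say that a number pairs livers, and deviations of same-numbered livers correlated at -0.10. With the numbers crossed, an alternative added after seeing the data, 56 were called. duplicateCorrelation needs more than 4 arrays and was not run; slide as a random block, with its correlation (0.35) taken from the spread within each genotype and also added after seeing the data, gave 33 calls and 0 of the 10. With 2 livers per genotype, differences of the size seen for these genes are mostly below what the test can call.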
